A study of Mus musculus with 24 samples.

Results

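Dbp, Tef and Hlf encode the PAR bZIP transcription factors, and all 3 genes were found among the 27597 named genes of the array by their gene name in the scanner files. They were measured by 6 of the 41174 probes, 1 for Dbp, 4 for Tef and 1 for Hlf, and all 6 were among the 29479 probes tested, which had to stand well above background in Cy5 on 4 or more of the 24 arrays. Liver RNA came from C57Bl/6J mice with floxed Mop3 alleles, either without Cre (Mop3fxfx, here floxed livers) or with Cre recombinase driven by the albumin promoter (Mop3fxfxCreAlb, called Cre livers). Arntl, or Bmal1, was formerly named Mop3, and albumin-Cre acts in hepatocytes. Which other cells of the liver kept the gene was not measured. Mice were 10 or 20 weeks old, fed freely and kept in equal spans of light and dark, and livers were taken every 4 h from ZT0, the time of lights on, to ZT20. Each of the 24 arrays, 12 per genotype, carried RNA pooled from no fewer than 3 mice that matched in genotype, age and time, beside a common pool of 10-week livers of both genotypes. No array was repeated, so the 2 ages are the only replication of a time and p-values measure the spread between arrays. The albumin-Cre transgene was not tested on unfloxed Mop3, so effects of the recombinase and of losing Mop3 cannot be told apart.

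The PAR bZIP factors share a basic leucine zipper next to a proline- and acid-rich region, bind as dimers to D-box elements and activate transcription there. NFIL3, also called E4BP4, is a bZIP repressor that binds the same element. In liver, Dbp is a textbook direct target of the CLOCK and BMAL1 dimer acting through E-boxes, its mRNA is known to be highest late in the light phase, and the family is known for rhythmic control of cytochrome P450 and other detoxification genes.

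The probes that carry the measurements are oligonucleotides of 60 bases, of which the first 30 are given here in 5′ to 3′ order, all in lower case because no part is singled out. They are shown because the 4 Tef probes differed in fitted amplitude, which was not tested between probes. The longest run that any pair of the Tef probes shared was 6 bases, so they read separate stretches of sequence. The file annotates Tef probes 1, 2 and 4 to the same RefSeq transcript and Tef probe 3 to a separate cDNA clone.
Dbp: tgccagggcagagtcctgttccttgctcag
Tef probe 1: aaattttctagaaaaaggcaaagatgattt
Tef probe 2: gcgtacctgctctaggagcactcacgtctc
Tef probe 3: ggagtgtatatcactgttagagcattttac
Tef probe 4: agccaagaaagtctttgtccctgatgaaca
Hlf: aggttgacctcggtgctatgtgtacggctt

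The DNA upstream of the start sites is shown because E-boxes are the known route from BMAL1 to this family. RefSeq windows of 300 bases, 250 before and 50 after a gene's start, were searched on both strands for the canonical E-box CACGTG, the variant CACGTT and the D-box TTANGTAA, which do not overlap one another in the stretches printed. The canonical E-box was found in both Tef windows, whose starts lie 8741 bases apart, and in none of the Dbp, Hlf and Nfil3 windows. Over all 32851 mouse windows, 7.15% held CACGTG, 4.68% held CACGTT and 2.32% held TTANGTAA, and neither of the last motifs was found in a member's window. A match is a description of these letters, and other parts of the genes were not searched. The 250 upstream bases of both Tef windows and of Dbp follow in build GRCm38.p6, with E-boxes in capitals, at chr15:81802423-81802672, chr15:81811164-81811413 and chr7:45704997-45705246, all on the plus strand.
Tef window 1: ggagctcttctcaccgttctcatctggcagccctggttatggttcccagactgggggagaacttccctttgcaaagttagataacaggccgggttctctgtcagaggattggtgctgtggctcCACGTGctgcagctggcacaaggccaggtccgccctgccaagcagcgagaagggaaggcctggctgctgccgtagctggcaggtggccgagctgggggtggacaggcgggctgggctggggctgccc
Tef window 2: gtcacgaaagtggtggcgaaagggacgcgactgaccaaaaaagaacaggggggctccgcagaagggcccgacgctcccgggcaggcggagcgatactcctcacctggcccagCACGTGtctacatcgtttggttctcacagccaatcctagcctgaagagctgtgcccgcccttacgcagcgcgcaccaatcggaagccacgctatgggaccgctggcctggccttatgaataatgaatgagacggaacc
Dbp window: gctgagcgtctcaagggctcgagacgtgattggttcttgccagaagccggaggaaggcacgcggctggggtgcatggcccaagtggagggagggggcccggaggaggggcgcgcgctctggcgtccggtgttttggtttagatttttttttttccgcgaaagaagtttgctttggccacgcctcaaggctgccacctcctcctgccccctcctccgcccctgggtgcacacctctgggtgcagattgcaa

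Dbp also shows which channel carried the samples. By the labels the samples were Cy3 and the reference pool Cy5, but the Dbp spot in Cy5 ran from 2251 to 62447 units over the 6 floxed livers of 10 weeks, a 27.7-fold range, while in Cy3 it ran from 8988 to 17396, a 1.94-fold range. In the 6 floxed livers of 20 weeks the range was 35.0-fold in Cy5 and 1.39-fold in Cy3. In Cre livers the range was 2.80-fold in Cy5 and 4.31-fold in Cy3 at 10 weeks, where the array of ZT16 was dim in both, and 3.90-fold and 2.15-fold at 20 weeks. Over all probes the larger spread within a slide was in Cy5 for 66.9 to 96.2% of them, counted in each of the 6 slides with several arrays. The lowest correlation between any 2 arrays was -0.25. Ratios are therefore given as Cy5 over Cy3, with Cy5 taken as the sample, which opposes the labels. Under the dyes as labelled every difference in level changes sign and every peak moves by 12 h, which would place the Dbp peak of floxed livers at ZT 21.4, while amplitudes and p-values stay as they are.

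**Figure D1:**
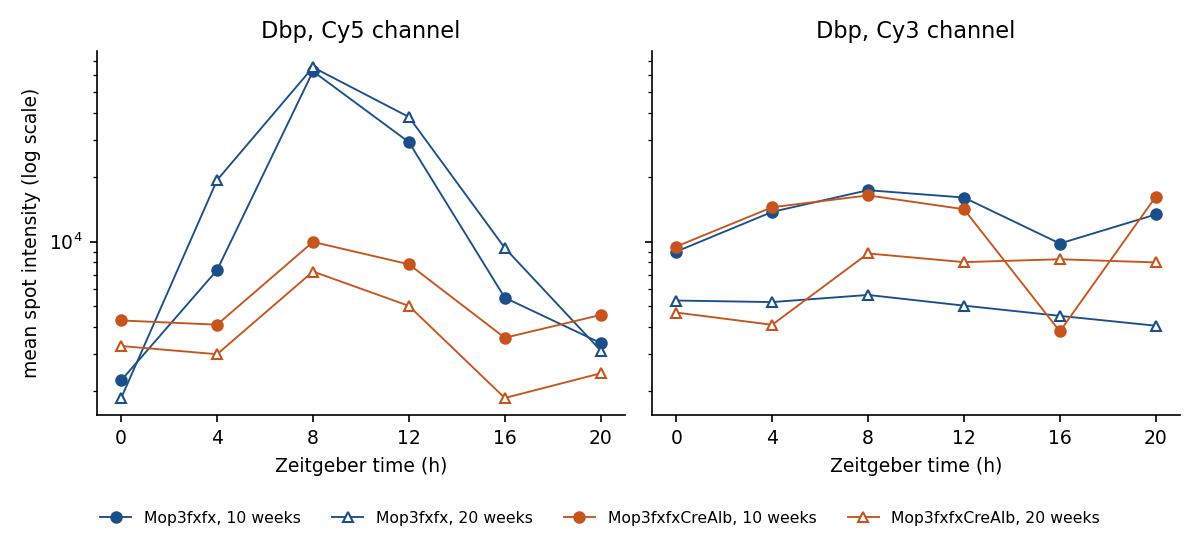
Mean spot intensity of the Dbp probe in Cy5 (left) and Cy3 (right) on a log scale against zeitgeber time in hours. Each point is 1 array, with blue for Mop3fxfx, orange for Mop3fxfxCreAlb, filled circles for 10 weeks and open triangles for 20 weeks. In Cy5 the floxed livers span 1861 to 65219 units and the Cre livers 1863 to 9977, while in Cy3 neither age of the floxed livers moves more than 1.94-fold.

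The arrays lay on 7 slides. In 5 of the 12 pairs of arrays of 1 age and time, all from 10-week livers, both genotypes shared a slide, and at 20 weeks no pair did. The 10-week Cre array of ZT16 was alone on its slide, with the lowest median Cy5 signal of all arrays (83.1 units), and the 20-week floxed array of ZT0 had the highest (245.8). Of the hepatocyte markers 7 of 8 were measured, and albumin was saturated on all 24 arrays. Arntl, the targeted gene, had an amplitude of 1.69 ± 0.17 in floxed livers and 0.22 ± 0.17 in Cre livers (log2, SE), but the probe could not be placed relative to the floxed exon.

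The main question was how the rhythm of each factor ran in floxed livers and what remained of it in Cre livers. Dbp had a called daily rhythm in floxed livers, with a fitted amplitude of 2.18 there against 0.81 in Cre livers, where no rhythm was called, and its mean over the day fell in Cre livers. The brightest Tef probe also had a called rhythm in floxed livers, with an amplitude of 1.12 against 0.27 in Cre livers. For neither was the difference in rhythm called over all probes. Hlf had no called rhythm in either genotype, and neither its mean nor its rhythm passed a test of the genotype difference.

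Dbp in floxed livers of 10 weeks stood at a log2 ratio of -2.41, -0.60, 2.07, 1.16, -1.25 and -1.87 from ZT0 to ZT20. In floxed livers of 20 weeks it stood at -2.45, 0.64, 1.71, 1.21, -0.52 and -2.04 at the same times. Both ages were lowest at ZT0 and highest at ZT8, and at ZT4 the 20-week array was higher by 1.24. In Cre livers of 10 weeks Dbp stood at -1.71, -1.51, -0.58, -0.61, -0.79 and -1.70, and in those of 20 weeks at -2.12, -1.80, 0.32, -0.84, -1.76 and -1.79. The Cre livers were again lowest at ZT0 and highest at ZT8, but over a range of 2.44 log2 units against 4.52 in floxed livers.

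The fitted amplitude of Dbp, the distance from mean to peak, was 2.18 ± 0.18 (log2, SE, n = 12 arrays) in floxed livers, with a peak at ZT 9.40 ± 0.32 and a peak-to-trough ratio of 20.6-fold (limma adjusted p = 3.9e-06). It was the 2nd largest amplitude of all probes tested, and 381 of 29479 probes, or 1.29%, had a called rhythm in floxed livers. Of the 6 member probes, 3 were called: Dbp, Tef probe 1 and Tef probe 3. In Cre livers the Dbp amplitude was 0.81 ± 0.18 with a peak at ZT 10.3 ± 0.85, a 3.09-fold ratio of peak to trough. This was not called (unadjusted p = 0.00097, limma adjusted p = 0.23), and no probe was called there, 0% of 29479 by limma, with 2453 probes at an unadjusted p under 0.05. The amplitude of Dbp in Cre livers was still the 18th largest of all probes, against a median of 0.10 over all probes, and an amplitude cannot be negative, so noise alone gives a value above 0.

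The Dbp amplitude was smaller in Cre livers (log2 difference -1.37 ± 0.26, 95% interval -1.90 to -0.83), the 4th largest drop of all probes. The F test of the difference in rhythm gave an unadjusted p of 0.00011 and a limma adjusted p of 0.149, so it was not called over all probes, where 8 probes or 0.0271% were. An exact permutation test that swapped genotypes within the 12 pairs of 1 age and time gave a two-sided p of 0.00195 for the drop in amplitude, where 4096 swaps allow 0.000488 at the least. That exact test was run for the amplitude and the mean of each of the 6 probes, and its p-values are unadjusted. Without the 20-week Cre array of ZT8, the Cre array with the highest Dbp ratio, the drop was -1.53 and the difference in rhythm was called (limma adjusted p = 0.033), while over the 24 arrays left out in turn the adjusted p ran up to 0.472, without the 10-week floxed array of ZT8.

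**Figure D2:**
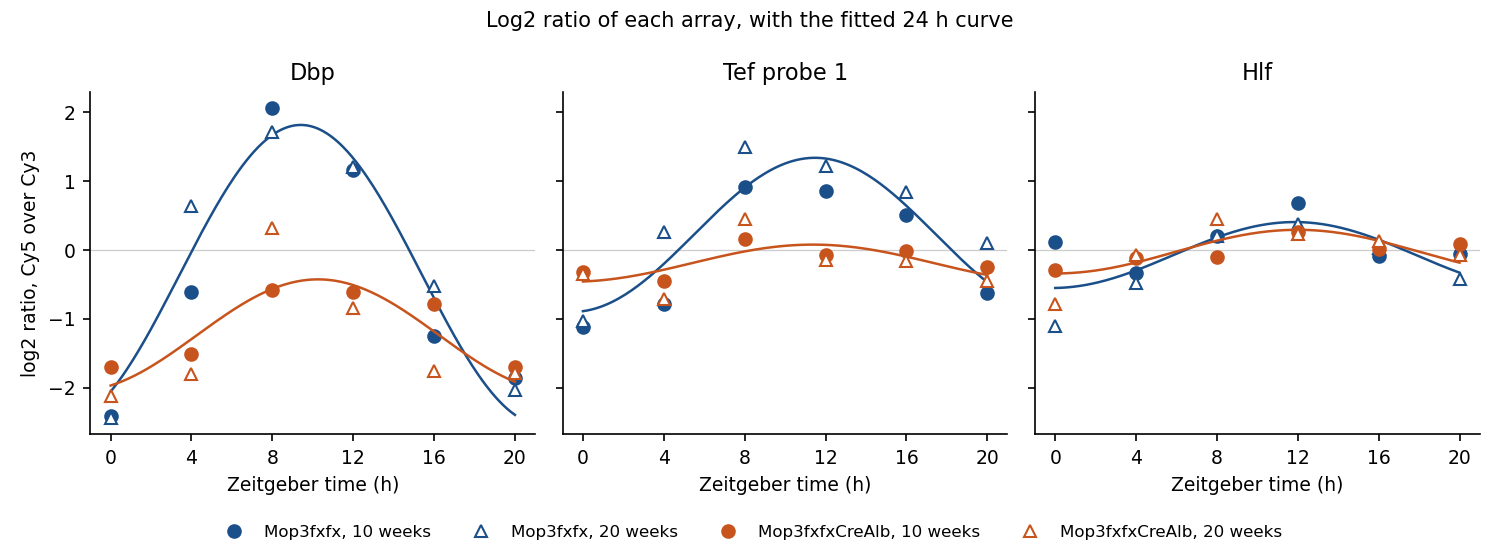
Log2 ratio of Cy5 over Cy3 against zeitgeber time in hours for Dbp, the brightest Tef probe and Hlf. Each point is 1 array, blue for Mop3fxfx, orange for Mop3fxfxCreAlb, filled circles for 10 weeks and open triangles for 20 weeks, and the lines are the fitted 24 h curves of each genotype. The floxed curve has an amplitude of 2.18 for Dbp, 1.12 for Tef and 0.48 for Hlf, and the Cre curve 0.81, 0.27 and 0.32.

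Averaged over the cycle, Dbp fell in Cre livers by 0.88 ± 0.18 log2 units (SE, 1.84-fold, limma adjusted p = 0.0021). Lower means were called for 3091 of 29479 probes or 10.5% and higher means for 2942 or 9.98%, so such a call is common on these arrays. Of the 6 member probes 3 had a called lower mean, again Dbp, Tef probe 1 and Tef probe 3, and none a higher one. Dbp was lower in 7 of the 12 pairs. Within pairs at ZT4, ZT8 and ZT12 it ran from -2.65 to -0.90, and in all 6 the Cre array was lower. At ZT0 and ZT20 the Cre array was higher in all 4 pairs, by 0.16 to 0.71, and at ZT16 it was higher by 0.46 at 10 weeks and lower at 20 weeks (difference -1.24). Of all probes, the Cre arrays lay wholly below the floxed ones for 16.4% at ZT4, 14.8% at ZT8 and 15.6% at ZT12. They lay wholly above for 14.2% at ZT0 and 17.9% at ZT20.

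By time, the difference in Dbp was -1.67 ± 0.40 at ZT4 (limma adjusted p = 0.23), -2.02 ± 0.40 at ZT8 (adjusted p = 0.054) and -1.91 ± 0.40 at ZT12 (adjusted p = 0.060), with 2 arrays per genotype. None was called in the main fit, and over all probes 0.0305% were called lower at ZT4, 0.078% at ZT8 and 0.126% at ZT12. Of 11 other settings, 3 gave a call at ZT8 and 4 at ZT12. At ZT8 the floxed arrays stood at 1.71 and 2.07 and the Cre arrays at -0.58 and 0.32, so they did not overlap, as was the case in that direction for 14.8% of all probes at ZT8, and the floxed Cy5 spot of 20 weeks was saturated. Leaving out 1 floxed array of ZT4 or 1 Cre array of ZT16, of either age, brought the adjusted p at ZT8 and ZT12 under 0.05, to between 0.023 and 0.034, and so did leaving out the 20-week Cre array of ZT8 for ZT8 (-2.50, adjusted p = 0.044). Without other arrays the adjusted p rose, to at most 0.632 at ZT8 (-1.54, without the 10-week Cre array of ZT8) and 0.599 at ZT12 (-1.77, without the 20-week Cre array of ZT12). The mean difference was -0.89 over the 5 pairs on 1 slide, 3 of them lower, and -0.87 over the 7 others, 4 of them lower. The 5 were all of 10 weeks and the 7 held every 20-week pair, so slide and age cannot be told apart here. With each pair as a block the mean difference was no longer called (adjusted p = 0.0559), nor in 10-week arrays alone (-0.67, adjusted p = 0.196). In 20-week arrays alone it was called (-1.09, limma adjusted p = 0.020). The exact permutation test of the mean difference over both ages gave an unadjusted p of 0.032.

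**Figure D3:**
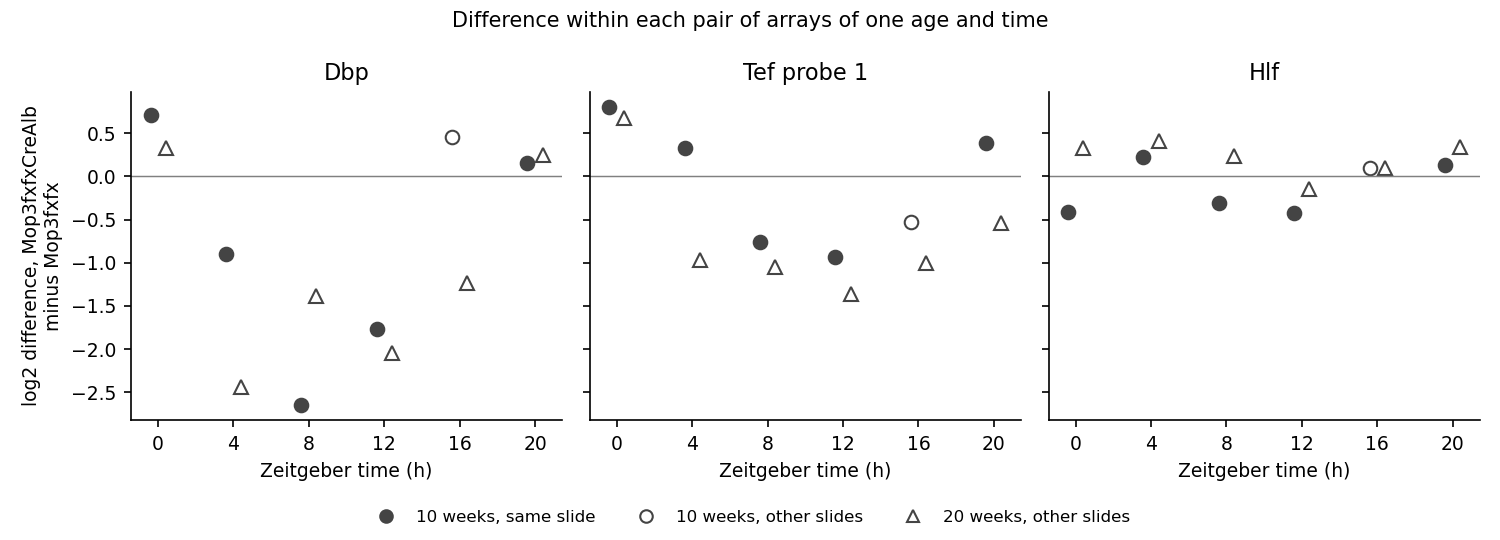
Log2 difference, Mop3fxfxCreAlb minus Mop3fxfx, within each of the 12 pairs of arrays of 1 age and time, against zeitgeber time in hours. Circles are 10 weeks and triangles 20 weeks, and filled symbols are pairs on 1 slide. Dbp differences reach -2.65 at ZT8 and are above 0 at ZT0 and ZT20, those of the brightest Tef probe reach -1.37 at ZT12, and those of Hlf stay between -0.42 and 0.41.

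Tef, thyrotroph embryonic factor, was read by 4 probes that did not give the same picture. Its brightest, probe 1, stood in floxed livers of 10 weeks at -1.12, -0.78, 0.91, 0.86, 0.52 and -0.63 from ZT0 to ZT20, and in those of 20 weeks at -1.03, 0.26, 1.49, 1.23, 0.85 and 0.10. In Cre livers it stood at -0.32, -0.45, 0.16, -0.08, -0.01 and -0.25 at 10 weeks and at -0.35, -0.71, 0.44, -0.14, -0.16 and -0.45 at 20 weeks. Floxed livers were lowest at ZT0 and highest at ZT8 at both ages, and Cre livers were lowest at ZT4 and highest at ZT8.

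Tef probe 1 had an amplitude of 1.12 ± 0.13 in floxed livers, a 4.73-fold ratio of peak to trough, with a peak at ZT 11.5 ± 0.44 (limma adjusted p = 0.00019). In Cre livers the amplitude was 0.27 ± 0.13 (adjusted p = 0.75). The drop in amplitude was -0.85 ± 0.18 (95% interval -1.23 to -0.47), not called over all probes (limma adjusted p = 0.38 for the difference in rhythm) and with p = 0.0112 in the exact permutation test. At ZT12 the difference was -1.15 ± 0.26 (adjusted p = 0.083), with floxed arrays at 0.86 and 1.23 and Cre arrays at -0.08 and -0.14. At ZT0 the Cre arrays were the higher ones, by 0.74 ± 0.26 (adjusted p = 0.44). Such a lack of overlap, in the same direction, was seen for 15.6% of all probes at ZT12 and 14.2% at ZT0.

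The mean of Tef probe 1 fell in Cre livers by 0.41 ± 0.13 (limma adjusted p = 0.028), with Cre arrays lower in 8 of 12 pairs. It was no longer called with the slide as a random block (-0.37, adjusted p = 0.077), with the slide as a fixed block (-0.33) or the scan day as a random one (-0.37), with Cy5 alone (-0.33, 0.081), with each pair as a block (0.14) or in 10-week arrays alone, and the exact permutation test gave an unadjusted p of 0.0864. In 20-week arrays alone the lower mean was called (-0.71, limma adjusted p = 0.028). The mean difference was -0.04 over the 5 pairs on 1 slide, 2 of them lower, against -0.68 over the 7 others, 6 of them lower. Leaving out any 1 of 7 arrays also took the adjusted p above 0.05, to at most 0.057, and all 7 were of 20 weeks (floxed ZT4, ZT8 and ZT20, Cre ZT4, ZT12, ZT16 and ZT20). Tef probe 1 differed by -0.12 between genotypes at 10 weeks and by -0.71 at 20 weeks, a gap of -0.59 ± 0.22 (p = 0.016, limma adjusted p = 0.101), and since no 20-week pair shared a slide, age and slide cannot be told apart for this gap.

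Among the other Tef probes, probe 3 behaved most like probe 1. Its log2 ratio in floxed livers ran from -0.25 to 0.99 and was highest at ZT8 at both ages, while in Cre livers it ran from -0.28 to 0.27, with ZT8 the highest time at 20 weeks (0.27) and the lowest at 10 weeks (-0.11). Its amplitude was 0.45 ± 0.07 in floxed livers with a peak at ZT 9.71 ± 0.59 (limma adjusted p = 0.0036) and 0.10 ± 0.07 in Cre livers. Its mean fell by 0.26 ± 0.07 in Cre livers (adjusted p = 0.013). The drop in amplitude was -0.35 ± 0.10 (unadjusted exact permutation p = 0.022). The difference in rhythm of probe 3 was not called over all probes (limma adjusted p = 0.92). The lower mean of probe 3 was no longer called with Cy5 alone (-0.11, adjusted p = 0.453), with the slide as a fixed block (-0.23, 0.178), with the authors' deposited log ratio (-0.63, 0.0957), with each pair as a block (0.063) or in 10-week arrays alone (-0.20, 0.30). In 20-week arrays alone it was called (-0.31, limma adjusted p = 0.0475). Probe 2, well above background on all 24 arrays, had an amplitude of 0.18 ± 0.11 in floxed livers (adjusted p = 0.74), a mean difference of -0.09 ± 0.11 and a drop in amplitude of -0.10 (95% interval -0.43 to 0.24). Its floxed amplitude was 0.47 with a peak at ZT 11.8 at 10 weeks and 0.15 with a peak at ZT 21.0 at 20 weeks. The limma F test of that difference gave an unadjusted p of 0.043 and an adjusted p of 0.77. At 20 weeks its highest floxed value, 0.68, was at ZT0, on the brightest array. Without that array and the 10-week Cre array of ZT16 the floxed amplitude was 0.34 (limma adjusted p = 0.32). Probe 4 had a floxed amplitude of 0.24 ± 0.08 (adjusted p = 0.29) and a drop of -0.18 ± 0.11. Probes 3 and 4 were dim, well above background on 20 and 18 of 24 arrays, and their Cy5 spots did not pass 308 and 187 units, against 13642 for probe 1. The offset of the background correction shrinks ratios of dim probes, and with the authors' deposited log ratio the floxed amplitude was 1.42 for probe 3 and 0.86 for probe 4. Over the 12 floxed arrays probe 1 correlated with probe 3 at r = 0.894, with probe 4 at 0.653 and with probe 2 at 0.264, as a description across arrays that share times of day.

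**Figure D4:**
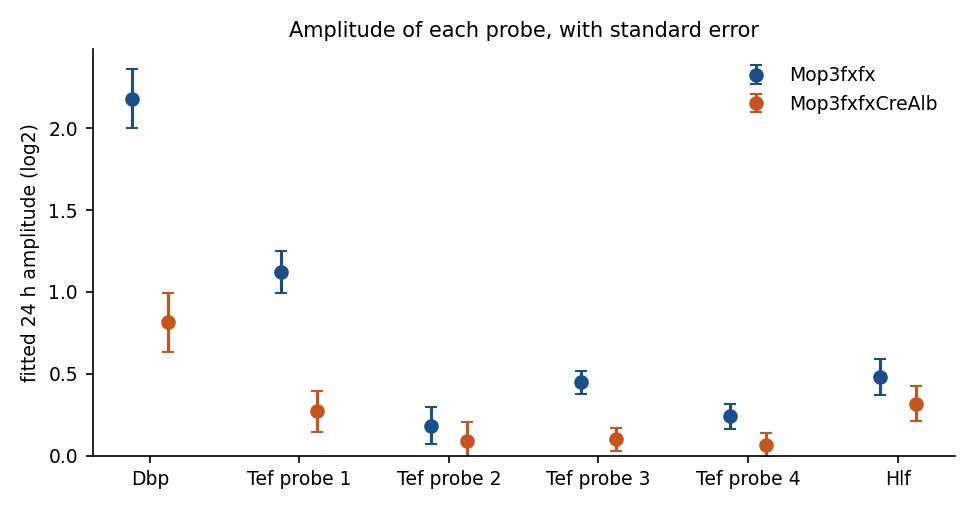
Fitted 24 h amplitude on the log2 scale of each of the 6 probes in Mop3fxfx (blue) and Mop3fxfxCreAlb (orange) livers, with standard errors from the fit over 24 arrays. The floxed amplitude is above the Cre amplitude for all 6 probes, from 2.18 against 0.81 for Dbp to 0.18 against 0.09 for Tef probe 2. Over all probes tested the median difference in amplitude, Mop3fxfxCreAlb minus Mop3fxfx, was -0.008.

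Hlf, hepatic leukemia factor, varied less. In floxed livers it stood at 0.11, -0.34, 0.20, 0.69, -0.09 and -0.06 at 10 weeks and at -1.10, -0.48, 0.21, 0.37, 0.03 and -0.42 at 20 weeks, from ZT0 to ZT20. In Cre livers it stood at -0.30, -0.11, -0.10, 0.27, 0.01 and 0.08 at 10 weeks and at -0.78, -0.07, 0.44, 0.23, 0.13 and -0.08 at 20 weeks. The floxed livers were highest at ZT12 at both ages, and the genotypes overlapped over most of the day.

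The amplitude of Hlf was 0.48 ± 0.11 in floxed livers with a peak at ZT 11.8 ± 0.87 (limma adjusted p = 0.071) and 0.32 ± 0.11 in Cre livers (adjusted p = 0.53), and neither was called. Without the 10-week floxed array of ZT0 the floxed amplitude was 0.62 and was called (adjusted p = 0.0082). The difference in amplitude was -0.16 (95% interval -0.48 to 0.16) and that of the mean 0.05 (95% interval -0.18 to 0.28, adjusted p = 0.79), so differences of up to these bounds remain possible. The exact permutation tests gave p = 0.22 and p = 0.56. Cre arrays were lower in 3 of 6 pairs at 10 weeks and in 1 of 6 at 20 weeks.

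In floxed livers the fitted peak of Tef probe 1 came 2.07 ± 0.37 h after that of Dbp (95% interval 1.30 to 2.85 h). That of Hlf came 2.44 ± 0.92 h after Dbp (0.49 to 4.39 h). These peaks and intervals assume a 24 h cosine. On the arrays, taken every 4 h, Dbp and Tef probe 1 were both highest at ZT8 at both ages. The peaks of Hlf and Tef probe 1 differed by 0.37 ± 1.04 h, within error, and the Hlf rhythm was not called. Tef probe 3, the other Tef probe with a called rhythm, had its fitted peak 0.31 ± 0.50 h after Dbp (-0.75 to 1.36 h), within error. A fitted peak later than that of Dbp beyond its error was thus found on Tef probe 1 and not on Tef probe 3. The peaks of Tef probes 1 and 3 were not tested against each other. Nfil3, the repressor of the same element, peaked at ZT 21.1 with an amplitude of 0.86 ± 0.13 in floxed livers (limma adjusted p = 0.0028) and had an amplitude of 0.34 ± 0.13 in Cre livers (adjusted p = 0.61). Its mean differed by -0.03 ± 0.13, and so did not pass the test.

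No member probe passed the test of age (limma adjusted p from 0.19 to 0.92), which 30.1% of all probes passed. None passed the test of whether the genotype difference depends on age, which 8.32% of all probes passed. The Dbp amplitude in floxed livers was 2.19 at 10 weeks and 2.18 at 20 weeks, with peaks at ZT 9.52 and 9.29. That of Tef probe 1 was 1.14 and 1.11. The Hlf amplitude was 0.28 and 0.68 (test of the difference in rhythm between ages, p = 0.14), with most of that gap at ZT0, where the 10-week floxed array stood at 0.11 and the 20-week array at -1.10.

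Genes that are linked to the PAR bZIP factors in the literature were followed as a list of 13, all of them measured. Judged by the brightest probe of each gene, the mean of 6 fell in Cre livers and that of none rose. The median difference was -0.41 against -0.01 over 20020 genes, where 10.5% of all probes were called lower and 9.98% higher. Cyp2a4 fell by 1.90 ± 0.22 and Cyp2a5 by 1.10 ± 0.18 (log2, SE). Both encode coumarin and steroid hydroxylases, and their near-identical sequences may share probes, so they may not be independent readings. Cyp2a4, Cyp2a5 and Por were saturated in Cy5 on 5, 11 and 6 of the 12 floxed arrays and on no Cre array, so their floxed levels were capped there, and the other Cyp2a5 probe gave -1.97. Por, the electron donor of the P450 enzymes, fell by 0.86 ± 0.14, Ppara, a nuclear receptor of fatty acid metabolism, by 0.80 ± 0.15, and Nr1i3, the xenobiotic receptor CAR, by 0.41 ± 0.09. Pdxk, pyridoxal kinase, fell by 0.82 ± 0.13, with 1 of its other probes at -0.37. The limma adjusted p of these 6 ran from 7.6e-06 for Cyp2a4 to 0.0038 for Nr1i3, and Cre arrays were lower in 11 or 12 of 12 pairs for each.

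The other 7 linked genes did not pass the test of the mean. Alas1, the first enzyme of haem synthesis, differed by -0.56 ± 0.21 (limma adjusted p = 0.069), Cyp7a1, the rate-limiting enzyme of bile acid synthesis, by 0.42 ± 0.23 (0.20), Cyp2b10 by 0.36 ± 0.20 (0.21) and Per3 by -0.06 ± 0.07 (0.61). The other probe gave -0.62 for Alas1, 0.07 for Cyp7a1 and 0.82 for Cyp2b10. The brightest Alas1 probe was saturated in Cy5 on 3 floxed arrays and on no Cre array, so its floxed level was capped there. Per1 and Per2, clock repressors, were the only linked genes with a called rhythm in floxed livers, with amplitudes of 0.98 ± 0.17 and 0.91 ± 0.14. No linked gene had a called rhythm in Cre livers or a called difference in rhythm, and the same holds for Dbp and Tef probe 1. Over all probes 0% and 0.0271% were called in these tests, and 1.29% for rhythm in floxed livers. Of the 11 linked genes with a promoter window, 2 held TTANGTAA, Alb and Per3, against 2.72% of all genes with a window. Neither of them was among the 6 that fell, but Alb was saturated in Cy5 on every array, so a fall could not be read there. The part of the D-box was not tested. In 10-week arrays alone 2 of the 13 were called lower, and in 20-week arrays alone 6. Over all probes 713 and 8175 were called for the mean in these fits, in either direction.

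**Figure D5:**
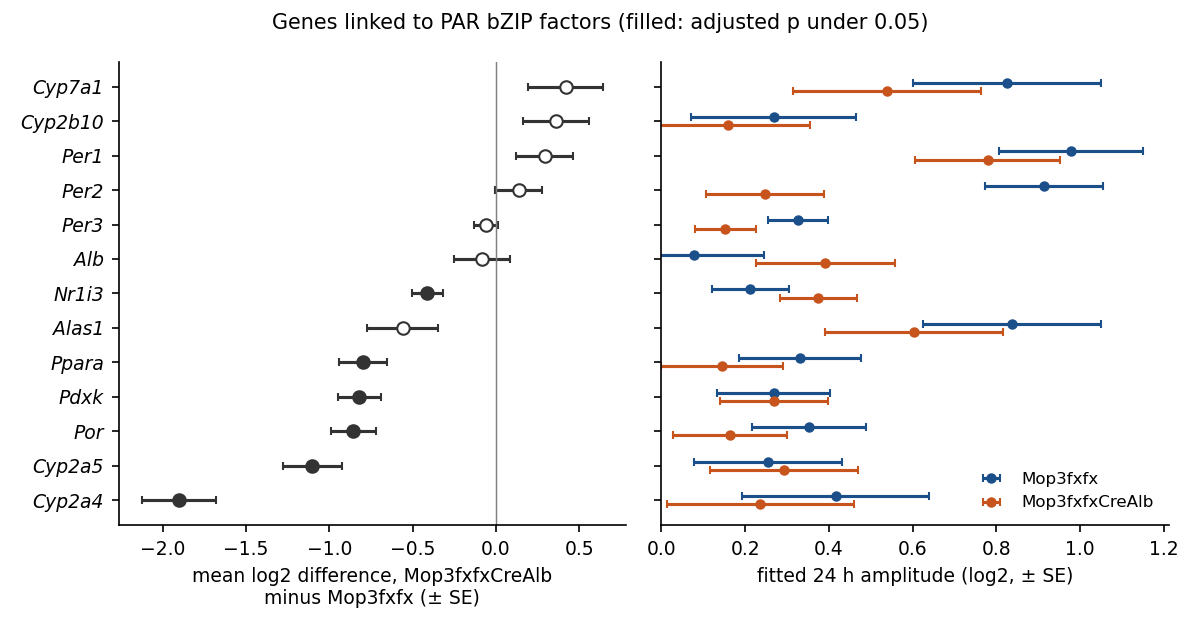
The 13 genes linked to PAR bZIP factors. Left, the mean log2 difference, Mop3fxfxCreAlb minus Mop3fxfx, with its standard error, filled where the adjusted p was under 0.05. Right, the fitted 24 h amplitude (log2, with standard error) in each genotype, blue for Mop3fxfx and orange for Mop3fxfxCreAlb. The filled points run from -1.90 for Cyp2a4 to -0.41 for Nr1i3, and the largest floxed amplitude is 0.98 for Per1.

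C/EBP factors, bZIP proteins that bind related sites, were measured for 4 of 5 genes, and none passed a test of the mean or of rhythm. The 15 genes of the clock loop had a called rhythm in 10 cases in floxed livers and in none in Cre livers. Over all probes the shares were 1.29% and 0%, so the lack of a call in Cre livers was not particular to clock genes. Their amplitude was smaller in Cre livers for 14 of them, with medians of 0.86 and 0.17 against 0.11 and 0.10 over all genes. The Dbp amplitude in Cre livers, 0.81, was passed in that list only by Nr1d2, which encodes REV-ERB beta, at 1.11.

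The genes whose log2 ratios followed each factor most closely over the 12 floxed arrays were taken among those with a floxed amplitude of at least 0.5, 413 for Dbp and Tef and 414 for Hlf. Dbp was followed by Rgs16 (r = 0.925), Nr1d2 (0.918), Gpcpd1 (0.890), Lpin2 (0.885) and Jph1 (0.885), and ran most opposite to Ube2u (-0.937), Tor3a (-0.931) and Lgalsl (-0.931). Tef probe 1 was followed by Upp2 (0.971), Mknk2 (0.956), Bhlhe40 (0.932), 1810055G02Rik (0.931) and Usp2 (0.923), and was most opposite to Grk5 (-0.936), Mpzl1 (-0.926) and Tubb2a (-0.926). Hlf was followed by Klf13 (0.890), Ddhd2 (0.885), Ivns1abp (0.855) and Per1 (0.845), and was most opposite to Ngfr (-0.919), Clpx (-0.903) and Cdpf1 (-0.890). These values describe arrays that share their times and ages. Over the 12 Cre arrays Nr1d2 still followed Dbp at 0.893, Rgs16 at 0.640 and Upp2 followed Tef probe 1 at 0.787. Dbp and Tef probe 1 correlated at 0.819 over the floxed and 0.866 over the Cre arrays.

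The livers were whole tissue, so fewer cells of a type and less RNA per cell cannot be told apart. Of the hepatocyte markers 1 of 7 measured fell in Cre livers, Hnf4a, whose probes did not all move the same way (log2 differences from -0.41 to 0.07). Alb, Fgb, Tat, Apoa1 and Cps1 were saturated in Cy5 on 12, 12, 12, 11 and 11 of the 12 floxed arrays. On the 12 Cre arrays they were saturated on 12, 12, 8, 7 and 6, so a fall in these markers could be hidden. Of the stellate cell and fibroblast markers 3 of 7 rose, with a mean log2 ratio per array of -0.81 to 0.01 in floxed and -0.51 to 0.15 in Cre livers, and of the cholangiocyte markers 2 of 6 rose, from -0.72 to -0.00 in floxed and -0.29 to 0.25 in Cre livers. Among macrophage and endothelial markers 1 of 7 rose in each, among lymphocyte markers 0 of 7 changed, and among 4 adipocyte markers 1 rose and 1 fell. Since 9.98% of all probes were called higher and 10.5% lower, 1 of 7 is near the share over all probes. The part of these markers in the lower means of Dbp and Tef was not tested.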

How the data were processed

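Per the file headers, Agilent Feature Extraction 9.1.3.1 wrote the deposited scanner files. The deposited intensity columns give, per the file headers, each spot's mean signal and local background in Cy3 and Cy5, with quality flags as other columns. The authors' deposited value table holds the software's normalised log10 ratio of Cy5 over Cy3, used here as an alternative after conversion to log2. No genome build or depth comes with the arrays, and precision is limited by how many arrays there were.

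Mean intensities were background-corrected by normexp with an offset of 50 and normalised within arrays by loess, with control spots at weight 0 and outlier spots left out. Spots of a probe were averaged. All 24 arrays were fitted per probe with limma 3.58.1 under R 4.3.3 (with statmod 1.5.0 and, for reading, version 1.17.8 of data.table), with a mean, a cosine and a sine term of 24 h for each genotype and a term for age. A call is a Benjamini-Hochberg adjusted p under 0.05 over all 29479 probes. Differences at each time came from genotype and time means plus age, and age interactions from added terms. Standard errors of amplitudes and peaks came from the delta method. The fit was tested on simulated data.

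Each list gene stands for its brightest probe, and genes were named through accessions and symbols of the RefSeq gene table provided. Named genes are the members, the lists, and for each member the 5 most and 3 least correlated genes, of which 1 is not reported here. The members, lists and direction of the ratio were chosen with earlier results of these data known.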

Additional observations from a re-analysis of the deposited data

How the results depend on the processing

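The results were recomputed under 15 planned settings, 1 added after seeing the data (without the last-scanned 10-week Cre array of ZT16 and the brightest array, 20-week floxed ZT0) and 24 that left out 1 array. The block of pairs gave mean differences alone, differences at each time were not run with the slide as a fixed block or with harmonics, and single-age fits gave none, nor did 1 probe a gene for the other Tef probes. The cause of each change was not tested, beyond the fewer arrays of the single-age fits. The drops in amplitude of Dbp (-1.54 to -1.19), Tef probe 1 (-0.92 to -0.78) and Hlf (-0.30 to -0.03) kept their direction in all 15 settings that gave them, single arrays aside. The delay of the fitted peak of Tef probe 1 after that of Dbp stayed between 1.91 and 2.24 h. By construction these drops and this delay could not change with another filter, 1 probe a gene, harmonics or the ratio turned. No paired analysis by replicate number was possible because the labels carry none, and pairs of 1 age and time were used instead.

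With pairs as a block the mean differences were -0.88 for Dbp (limma adjusted p = 0.0559) and -0.41 for Tef probe 1 (0.14). In 10-week arrays alone the floxed amplitude was 2.19 for Dbp (0.059) and 1.14 for Tef probe 1 (0.066), the mean differences were -0.67 for Dbp, -0.12 for Tef probe 1 and -0.11 for Hlf, and 5, 0 and 713 probes were called for floxed rhythm, difference in rhythm and mean. In 20-week arrays alone the floxed amplitudes were 2.18 (0.098) and 1.11 (0.21), and 11, 1 and 0 probes were called for rhythm in floxed livers, in Cre livers and for its difference. The mean differences at 20 weeks were -1.09 for Dbp (limma adjusted p = 0.020), -0.71 for Tef probe 1 (0.028) and 0.21 for Hlf (0.23). For the mean 8175 probes were called there. The mean difference of Tef probe 1 lost its call with Cy5 alone (-0.33), with the slide as a random (-0.37) or fixed block (-0.33) and with the scan day as a block (-0.37). That of Hlf turned in the same settings, to -0.064, -0.020, -0.11 and -0.026. The floxed amplitude of Hlf was called with the slide (0.48) or scan day (0.48) as a random block and with array weights (0.44). At ZT8 the Dbp difference was called in 3 of 11 settings. These were Cy5 alone (limma adjusted p = 0.023), a filter on Cy3 (0.049) and the added setting. At ZT12 it was called in 4 of 11: no background subtraction (0.045), Cy5 alone (0.022), array weights (0.015) and the added setting. Tef probe 1 was called at ZT12 in 1 of 11, with array weights (0.026). Tef probe 3 was called at ZT8 in 2 of 10, with the slide (0.048) or scan day (0.047) as a random block.

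Probes with a called floxed rhythm numbered 707 and 653 with the slide as a random or fixed block, 863 with the scan day and 581 with array weights. Those with a called Cre rhythm numbered 15 with Cy5 alone, 111 with array weights, 29 in the added setting and 1 without a filter and with each slide or scan block. Those with a called difference in rhythm numbered 17 with Cy5 alone or the slide at random, 19 with the slide fixed or the scan day, and 5 without a filter. Called means numbered 2358 with the slide fixed and 10059 with array weights.

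Leaving out 1 array at a time, floxed rhythms ran from 241 (without 20-week floxed ZT12) to 407 probes, Cre rhythms from 0 to 19 (without 10-week Cre ZT16), differences in rhythm from 2 to 12 and means from 4638 to 6684. The Dbp drop in amplitude ran from -1.53 to -1.28, the mean difference of Tef probe 1 from -0.47 to -0.35, that of Hlf from -0.0064 (without 20-week floxed ZT0) to 0.12 and the floxed Hlf amplitude from 0.37 to 0.62.

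Turned as labelled, the mean differences become 0.88 for Dbp, 0.41, 0.094, 0.26 and 0.065 for Tef probes 1 to 4 and -0.049 for Hlf, and by time 2.02 and 1.91 for Dbp at ZT8 and ZT12, 1.15 for Tef probe 1 at ZT12 and 0.77 for Tef probe 3 at ZT8. Saturation limits Dbp on 1 array, and low signal limits Tef probes 3 and 4.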
